A study of Mus musculus with 4 samples.

Results

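The endoplasmic reticulum (ER) genes described here are 36 mouse genes for protein entry into the ER, folding, N-glycosylation, degradation and the unfolded protein response. They were chosen by name, and all 36 were found among the 38282 genes listed in the deposited tables by their Ensembl IDs. Splenic naive CD4+ T cells of C57BL/6 mice were cultured under the Th0 condition alone (Th0) or under the Th0 condition with dopamine treatment (Th0+Dopa), and were harvested on day 4. Th0 usually means activation without cytokines that steer the cells to a T helper lineage. Each group holds 2 libraries of total RNA, numbered 2 and 3. The study's title is about dopaminergic innervation and Th2 inflammation in the postnatal lung, and the comparison addresses what dopamine changes in T cells. The sources used here give neither the age of the mice nor the dopamine dose. The labels do not state whether the libraries are separate cultures or animals, and every p-value below therefore reflects the spread of these 4 samples, which may be technical.

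Proteins for secretion or for membranes enter the ER through the Sec61 channel, lose their signal peptide to signal peptidase and receive N-linked glycans from the oligosaccharyltransferase. Hspa5 (also called BiP) and other chaperones, lectins and disulfide isomerases then fold them, and proteins that fail are moved back to the cytosol and degraded. When unfolded proteins build up, the sensors Ern1 (IRE1), Atf6 and Eif2ak3 (PERK) start the unfolded protein response, in which the transcription factors Xbp1, Atf6 and Atf4 raise chaperone, isomerase and degradation genes. Activated T cells, which make cytokines and receptors in quantity, are known to use this response.

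Many of the classical targets of the response share a promoter sequence, the ER stress response element (ERSE), to which NF-Y and Atf6 or Xbp1 bind. It consists of CCAAT, any 9 bases and CCACG. The promoters here run from 250 bases before to 50 bases after the annotated start site (RefSeq, GRCm38.p6, the same coordinates as mm10), and 29 of the 36 genes had one. Both strands were searched. The ERSE was found in 8 of these 29 genes (27.6%), against 39 of all 32851 promoters (0.119%) and 14 of 8328 tested genes with a promoter (0.168%). The 14 include the 8 ER genes, which were chosen by name, so these shares are a description. The 8 were Hspa5, Hsp90b1, Pdia6, Calr, Canx, Dnajc3, Creld2 and Syvn1, and Hsp90b1 held 2 copies. The shorter ERSE-II, which is ATTGG, any 1 base and CCACG, was found in Herpud1 before the start site and in Dnajb11 just after it (0.0365% of all promoters). The sequence TGACGTGG of the unfolded protein response element was found in 0 of the 29 and in 0.676% of all promoters. A match is a description of the letters in these windows and shows no binding.

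The upstream stretches that hold these elements are shown because genes with the same element stood on opposite sides of the comparison below. Capitals mark the ERSE or ERSE-II. A copy on the other strand is printed in reverse complement, as it reads along the gene. The whole 250 bases before the start site are given for Hspa5 and Hsp90b1, and the element with up to 25 bases on each side for the others.
Hspa5 (chr2:34771840-34772089, plus strand): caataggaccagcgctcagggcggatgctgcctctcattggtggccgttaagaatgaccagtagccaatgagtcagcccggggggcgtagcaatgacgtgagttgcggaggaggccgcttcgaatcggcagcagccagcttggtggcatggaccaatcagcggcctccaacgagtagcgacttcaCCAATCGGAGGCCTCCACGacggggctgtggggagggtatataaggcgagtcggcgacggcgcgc
Hsp90b1 (chr10:86705445-86705694, minus strand): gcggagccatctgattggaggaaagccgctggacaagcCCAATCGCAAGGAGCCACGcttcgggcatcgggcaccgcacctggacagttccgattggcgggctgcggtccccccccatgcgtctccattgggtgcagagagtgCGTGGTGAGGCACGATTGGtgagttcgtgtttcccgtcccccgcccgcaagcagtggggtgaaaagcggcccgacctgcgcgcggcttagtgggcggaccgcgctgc
Pdia6 (chr12:17266466-17266534, plus strand): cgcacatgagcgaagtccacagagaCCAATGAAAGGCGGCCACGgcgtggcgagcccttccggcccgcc
Creld2 (chr15:88819495-88819563, plus strand): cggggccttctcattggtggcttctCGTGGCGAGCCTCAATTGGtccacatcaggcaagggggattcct
Herpud1 (chr8:94386352-94386412, plus strand): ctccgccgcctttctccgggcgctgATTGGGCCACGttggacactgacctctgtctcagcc
Calr (chr8:84847050-84847118, minus strand): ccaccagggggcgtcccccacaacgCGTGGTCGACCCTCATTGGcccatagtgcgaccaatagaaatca
Canx (chr11:50325775-50325843, minus strand): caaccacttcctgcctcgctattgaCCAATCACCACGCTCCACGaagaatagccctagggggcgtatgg
Dnajc3 (chr14:118937802-118937870, plus strand): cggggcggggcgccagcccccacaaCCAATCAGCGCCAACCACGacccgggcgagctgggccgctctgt
Syvn1 (chr19:6046507-6046575, plus strand): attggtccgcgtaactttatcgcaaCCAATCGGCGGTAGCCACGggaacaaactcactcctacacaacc

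Levels are FPKM as deposited (fragments per kilobase of transcript, scaled by the authors, with normalization options not given in the sources used here). Libraries 2 and libraries 3 stand in separate tables, so Th0+Dopa was compared with Th0 within each table, and levels set across tables are descriptions. A difference is log2(FPKM + 1) in Th0+Dopa minus Th0, averaged over the pairs and given ± its standard error (SE). It was tested with the table as a block by limma, which draws each gene's SE towards the spread of tested genes at a like level. The test covered the 11423 genes with a mean of at least 1 FPKM, and a call is a Benjamini-Hochberg adjusted p under 0.05. Of the 36 genes, 35 passed this filter. Ern1, the exception, was at 0.730 FPKM in both Th0 libraries and at 0.422 and 1.08 in Th0+Dopa 2 and 3, which is about 13, 9, 7 and 18 fragments in Th0 2, Th0 3, Th0+Dopa 2 and Th0+Dopa 3 by an estimate from the steps between low values.

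The ER genes did not move as a block. With dopamine, 6 of the 35 tested rose, namely Sdf2l1, Pdia6, Sec61b, Xbp1, Manf and Ssr4, by 1.42-fold to 1.56-fold, and 1 fell, Hsp90b1, to 0.732 of its Th0 level. That is 17.1% higher against 6.28% of all tested genes, and 2.86% lower against 4.39%. At an unadjusted p under 0.05 there were 13 higher (37.1%) and 7 lower (20%), beside 15.7% and 12.2% of all tested genes. Both Th0+Dopa libraries lay above both Th0 libraries for 17 of the 35 (31.4% of all tested genes did so) and below both for 8 (25.6% of all). The median difference of the 35 was 0.17, beside 0.03 over all tested genes. These counts depended on scaling and fit. With each library scaled to a common FPKM sum, 0 were called higher and 6 lower (Hsp90b1, Calr, P4hb, Sec61g, Canx and Spcs3). At an unadjusted p under 0.05 there were 3 higher and 12 lower of the 35, beside 6.78% and 24% of all tested genes. All genes also shifted to lower calls there, with 3.29% higher and 9.31% lower, and the median was -0.08 for the ER genes and -0.20 for all genes. Without limma's trend 0 ER genes were called in either direction, when 0.928% and 1.31% of all genes were called. At an unadjusted p under 0.05 there were then 7 higher and 5 lower, beside 13.6% and 10.4% of all genes. Without the block 0 were called, beside 2.24% and 2.1% of all genes, and 12 and 5 had an unadjusted p under 0.05, beside 13.6% and 10.6% of all genes. Fits without 1 library called 0 to 3 genes higher and 0 to 2 lower among all 11423, so that their 0 calls among ER genes say nothing about these genes.

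**Figure D1:**
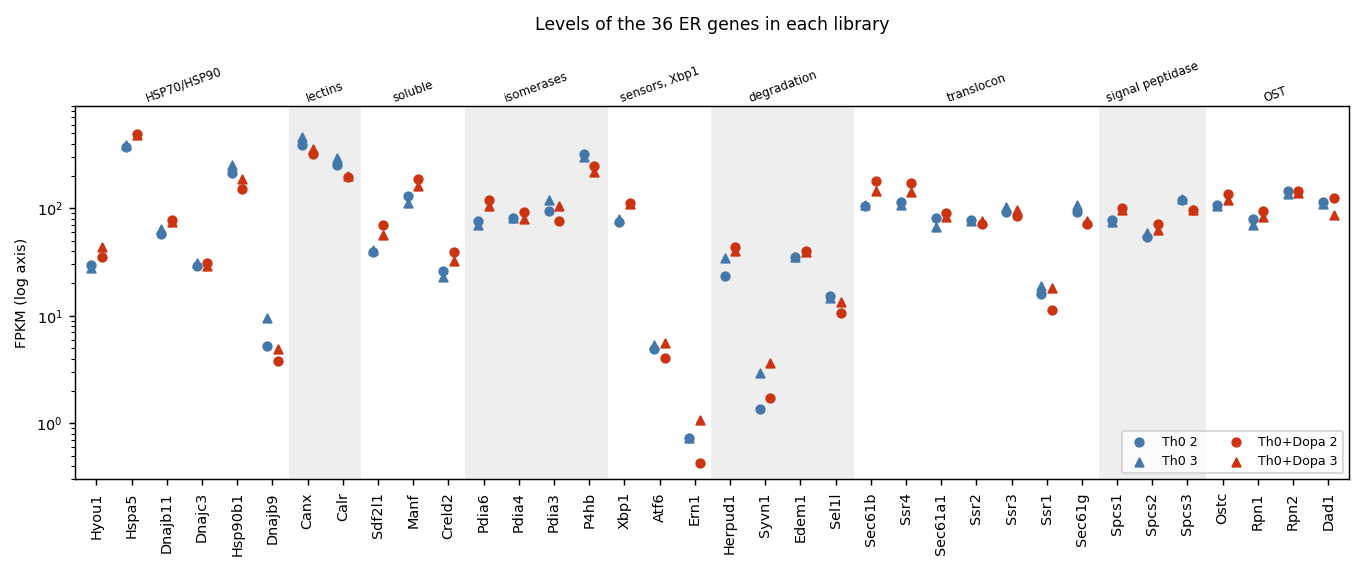
FPKM of the 36 ER genes (log axis) in Th0 libraries (blue) and Th0+Dopa libraries (red), with circles for libraries 2, triangles for libraries 3 and shaded bands for roles. Hspa5 is the most abundant with dopamine, at 492 and 479.7 FPKM, while Ern1 lies lowest, between 0.422 and 1.08 FPKM.

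In sum the 36 genes took 3542 and 3710 FPKM in Th0 2 and Th0 3 and 3807 and 3664 in Th0+Dopa 2 and Th0+Dopa 3, and these ranges overlap. As a share of the FPKM of nuclear protein-coding genes they held 0.705% and 0.715% in Th0 libraries 2 and 3 and 0.639% and 0.677% in the dopamine libraries, so both shares were lower with dopamine. The deposited FPKM themselves summed to 687066 and 715110 in Th0 and to 880583 and 794873 with dopamine. Other totals also moved with the group. Mitochondrial genes took 5.64% and 8.41% of all FPKM in Th0 2 and 3 and 1.55% and 3.35% in Th0+Dopa 2 and 3, and histone cluster genes 1.13% and 0.976% against 2.95% and 2.25%. The number of genes above 0 was 17833 and 19177 in Th0 and 15974 and 16276 with dopamine. Their part in the differences of ER genes was not tested. The cells' label was checked by markers. Cd4 stood at 115 to 123 FPKM in the 4 libraries, and the summed level of the 8 T cell genes was 1555 and 1656 in Th0 and 1566 and 1526 with dopamine. Within that list Cd5 (0.96 ± 0.10) and Cd3d (0.48 ± 0.10) rose, Trac fell by 0.70 on the log2 scale (SE 0.10), and the other 5 were not called. Markers of macrophages and dendritic cells summed to 423 and 561 FPKM in Th0 and to 59.4 and 57.4 with dopamine over 12 genes, of which 10 fell and C1qa was listed at 0 in both Th0+Dopa libraries. The 11 granulocyte, basophil and mast cell genes summed to 449 and 598 against 50.8 and 47.1, and 8 of them fell, with Elane listed at 0 in both Th0+Dopa libraries. Their part in the differences of ER genes, which these cells also express, was not tested. Plasma cells are known for abundant ER. Their 8 marker genes summed to 22.6 and 26.8 FPKM in Th0 and to 29.8 and 32.8 with dopamine. Most of this was Ighm, at 12.5 and 16.0 FPKM in Th0 2 and 3 and 18.1 and 19.9 with dopamine. Of the 4 tested, Ighm and Sdc1 were higher in both pairs, 2 were mixed and 0 were called. Tnfrsf17 was listed at 0 in every library, and Jchain was at most 0.309. The 7 B cell genes summed to at most 5.85 FPKM. In bulk RNA, fewer cells of a type and less RNA per cell cannot be told apart.

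Of the transcription factor and the sensors of the response, Xbp1 rose. Xbp1 encodes the transcription factor whose mRNA is spliced by Ern1 (ENSMUSG00000020484, chromosome 11, 5520659 to 5525893, GENCODE M21 on GRCm38). It was at 73.7 FPKM in Th0 2, 79.0 in Th0 3, 112 in Th0+Dopa 2 and 109.9 in Th0+Dopa 3. The groups did not overlap, and Xbp1 rose by 0.53 ± 0.11 (1.45-fold, limma adjusted p = 0.0356). Gene-level FPKM do not separate its spliced from its unspliced form. Atf6, a membrane-bound factor that is cleaved in the Golgi, had 4.94 and 5.36 FPKM in Th0 2 and 3 and 4.07 and 5.62 with dopamine (-0.08 ± 0.21, adjusted p = 0.839), so its groups overlapped, and Ern1 split in opposite directions in the pairs.

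The 3 soluble ER proteins that stress induces lay above Th0 in both dopamine libraries, and 2 of the 3 rose. Sdf2l1, a partner of the Hspa5 cycle (ENSMUSG00000022769, chromosome 16, 17130138 to 17132383), was at 39.2 and 41.0 FPKM in Th0 2 and 3 and at 70.2 and 56.8 in Th0+Dopa 2 and 3. Its rise of 0.64 ± 0.13 (1.56-fold, adjusted p = 0.0399) was 0.83 in pair 2 and 0.46 in pair 3. Manf, a secreted protective factor that binds Hspa5 (ENSMUSG00000032575, chromosome 9, 106838312 to 106891979), went from 129.7 and 113 FPKM to 188 and 162. The pairs gave 0.53 and 0.51, close to each other, and a mean of 0.52 ± 0.10 (1.44-fold, adjusted p = 0.0327). The annotated span of Manf overlaps Dcaf1 on the other strand, which was at 21.7 to 23.7 FPKM in the 4 libraries, and whether counting used strand is not known from the sources used here. Creld2, an ER protein with isomerase activity and an ERSE in its promoter, was at 26.3 and 22.8 FPKM in Th0 and 38.9 and 32.2 with dopamine (0.51 ± 0.12, adjusted p = 0.0535), just short of a call.

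The ATP-driven chaperones split. Hspa5, the ER HSP70, which also holds the sensors inactive, was at 371 and 391 FPKM in Th0 2 and 3 and at 492 and 479.7 in Th0+Dopa 2 and 3. Its groups did not overlap, and its difference of 0.35 ± 0.11 did not pass (adjusted p = 0.0982). Hsp90b1, the ER HSP90 also called GRP94 (ENSMUSG00000020048, chromosome 10, 86690209 to 86705509), was at 213 and 251 FPKM in Th0 and at 152 and 188 with dopamine. It fell by 0.45 on the log2 scale (SE 0.10, adjusted p = 0.0472), and both dopamine libraries lay below both Th0 libraries. With GC content and transcript length corrected for, Hsp90b1 no longer passed (-0.23 ± 0.08, adjusted p = 0.168), while Hspa5 did (0.45 ± 0.07, adjusted p = 0.0395). With the common sum the reverse held. Hsp90b1 passed there (-0.70 ± 0.12, limma adjusted p = 0.0123), and Hspa5 did not (0.10 ± 0.09, adjusted p = 0.513). Within each library, which no scaling of that library can change, the ratio of Hspa5 to Hsp90b1 was 1.74 and 1.56 in Th0 2 and 3 and 3.24 and 2.55 with dopamine. The ratio was thus higher with dopamine by 1.86-fold in pair 2 and 1.64-fold in pair 3. This ratio and those below pair genes chosen after their values were seen, so their direction is a description and no test. Hyou1, the large HSP70 that exchanges the nucleotide of Hspa5, had 29.6 and 28.0 FPKM in Th0 and 35.2 and 43.2 with dopamine (0.43 ± 0.14, adjusted p = 0.120).

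The J-domain cofactors that drive the Hspa5 cycle held no call. Dnajb11 lay at 57.8 and 64.2 FPKM in Th0 2 and 3 and at 78.2 and 74.4 with dopamine (0.32 ± 0.11, adjusted p = 0.142). Dnajc3, also an inhibitor of the kinase PERK, was at 28.7 to 31.3 FPKM in all 4 libraries (-0.02 ± 0.13). Dnajb9, a cofactor that represses Ern1, was at 5.23 and 9.45 FPKM in Th0 and at 3.82 and 4.91 with dopamine. That gave the lowest difference among the 35 genes, -0.60 ± 0.22, without a call (adjusted p = 0.144), on about 33 to 64 fragments a library. Dnajb9 and Xbp1 are both known as targets of the response, and their values lay on opposite sides of 0.

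**Figure D2:**
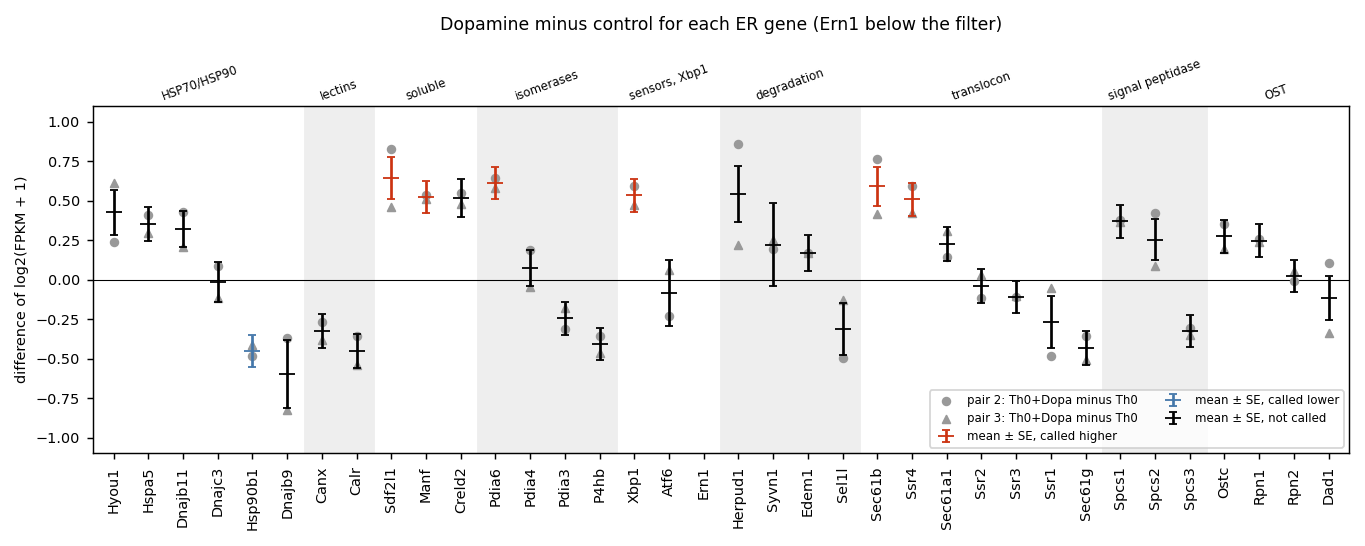
Difference of log2(FPKM + 1), Th0+Dopa minus Th0, for each tested ER gene by role. Grey circles and triangles are pairs 2 and 3, and bars are the mean ± SE. Both pairs lie above 0 for 18 of the 35 genes (37.6% of all tested genes) and below 0 for 11 (32.3% of all).

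The lectins of the calnexin cycle, which hold newly made glycoproteins, lay below Th0 in both dopamine libraries. Calr (calreticulin) was at 253 and 294 FPKM in Th0 2 and 3 and at 197 and 201 with dopamine (-0.45 ± 0.11, adjusted p = 0.0547). Canx (calnexin), its membrane-bound relative, was at 386 and 460 FPKM in Th0 and at 320.0 and 353 with dopamine (-0.33 ± 0.10, adjusted p = 0.113). Neither passed as deposited. With the common sum both did (Calr -0.70, adjusted p = 0.00725, and Canx -0.58, adjusted p = 0.0113), and with the GC and length correction neither did, Calr at -0.41 ± 0.08 (adjusted p = 0.0566) and Canx at -0.11 ± 0.08 (adjusted p = 0.430). The ratio of Manf to Calr within a library, also chosen after the values were seen, was 0.513 and 0.386 in Th0 2 and 3 and 0.955 and 0.803 with dopamine.

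Disulfide isomerases, which form and shuffle the disulfide bonds of secretory proteins, had differences on both sides of 0. Pdia6 (ENSMUSG00000020571, chromosome 12, 17266545 to 17284770), an isomerase that also acts on the sensors, was at 76.2 and 69.8 FPKM in Th0 2 and 3 and at 119.7 and 105 with dopamine. It rose by 0.61 ± 0.10 (1.53-fold, adjusted p = 0.0232), the lowest adjusted p among the 35 genes, and by 0.68 ± 0.09 with GC content and length corrected for (adjusted p = 0.0239). With the common sum Pdia6 did not pass (0.36 ± 0.12, limma adjusted p = 0.104). P4hb, the founding member of the family, was at 319 and 301 FPKM in Th0 and at 249 and 218 with dopamine. Its difference of -0.41 ± 0.10 did not pass as deposited (adjusted p = 0.0627) and passed after the correction (-0.46 ± 0.08, adjusted p = 0.0432). Within a library the ratio of Pdia6 to P4hb was 0.239 and 0.232 in Th0 2 and 3 and 0.480 and 0.479 with dopamine, higher by 2.01-fold in pair 2 and 2.07-fold in pair 3. Pdia3, the partner of the lectins, had 94.5 and 120.3 FPKM in Th0 and 75.9 and 106 with dopamine (-0.25 ± 0.11, adjusted p = 0.200), and its groups overlapped. Pdia4 was at 78.7 to 92.3 FPKM across the 4 libraries (0.07 ± 0.11).

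**Figure D3:**
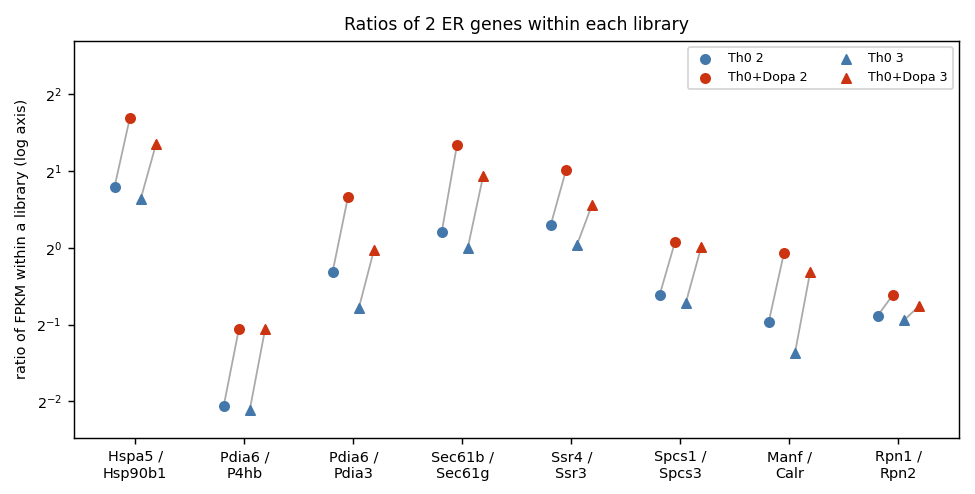
Ratio of the FPKM of 2 ER genes within each library (log axis), with lines joining Th0 (blue) to Th0+Dopa (red) of the same table. The 8 ratios were chosen after the values were seen. The ratio of Pdia6 to P4hb goes from 0.239 to 0.480 in pair 2 and from 0.232 to 0.479 in pair 3.

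The ER-associated degradation genes held no call. Herpud1, a membrane scaffold of the degradation complex with an ERSE-II, was at 23.5 and 34.2 FPKM in Th0 2 and 3 and at 43.4 and 39.99 with dopamine. Its pairs differed widely, 0.86 against 0.22, and the mean of 0.54 ± 0.18 did not pass (adjusted p = 0.119). Sel1l, the adaptor of the ligase, had 15.4 and 14.7 FPKM in Th0 and 10.6 and 13.3 with dopamine (-0.31 ± 0.17, adjusted p = 0.276). Edem1, a mannosidase-like protein that passes on misfolded glycoproteins, was at 35.2 and 34.9 FPKM in Th0 and at 39.7 and 39.3 with dopamine (0.17 ± 0.11, adjusted p = 0.394). The ligase gene Syvn1 (Hrd1) was at 1.37 to 3.66 FPKM, with overlapping groups, and its span overlaps Mrpl49 on the other strand, at 22.2 to 31.5 FPKM.

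Subunits of single complexes also lay on both sides of 0. In the Sec61 channel, Sec61b (ENSMUSG00000053317, chromosome 4, 47474658 to 47483242) was at 105 and 108 FPKM in Th0 2 and 3 and at 179.9 and 144 with dopamine. It rose by 0.59 ± 0.12 (1.5-fold, adjusted p = 0.0420) as deposited and did not pass with GC content and length corrected for (0.26 ± 0.09, adjusted p = 0.169). Sec61g, the other small subunit, was at 91.7 and 108 FPKM in Th0 and at 71.2 and 75.4 with dopamine (-0.43 ± 0.11, adjusted p = 0.0598). With the GC and length correction Sec61g was at -0.27 ± 0.09 (limma adjusted p = 0.140). The ratio of Sec61b to Sec61g within a library was 1.15 and 1.00 in Th0 2 and 3 and 2.53 and 1.91 with dopamine, higher by 2.2-fold and 1.91-fold in pairs 2 and 3. The pore subunit Sec61a1 was at 81.9 and 67.0 FPKM in Th0 and at 90.7 and 83.0 with dopamine (0.22 ± 0.11, adjusted p = 0.241). These subunits form a single channel, and their transcripts stood on both sides of 0.

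The translocon-associated protein complex (Ssr1 to Ssr4), which helps chosen signal sequences enter, held 1 call. Ssr4 (ENSMUSG00000002014, chromosome X, 73787028 to 73790830) was at 114 and 106 FPKM in Th0 2 and 3 and at 172 and 143 with dopamine, and rose by 0.51 ± 0.11 (1.42-fold, adjusted p = 0.0417). Ssr1, Ssr2 and Ssr3 had overlapping groups and differences of -0.27 ± 0.17, -0.04 ± 0.11 and -0.11 ± 0.10. Of these, Ssr3 turned positive with the GC and length correction (0.26 ± 0.09, adjusted p = 0.144). In signal peptidase, Spcs1 had 0.37 ± 0.10 (adjusted p = 0.0809), Spcs2 0.25 ± 0.13 (adjusted p = 0.258) and Spcs3 -0.33 ± 0.10 (adjusted p = 0.105). Spcs3 was at 119 and 122 FPKM in Th0 2 and 3 and at 95.99 and 95.8 with dopamine, and Spcs1 at 77.9 and 74.6 against 101 and 96.2, so neither overlapped between groups. With the GC and length correction Spcs3 came close to 0 (-0.08 ± 0.09, limma adjusted p = 0.611). Spcs1 was then at 0.44 ± 0.09 (adjusted p = 0.0631). In the oligosaccharyltransferase, Ostc had 0.27 ± 0.11, Rpn1 0.25 ± 0.10, Rpn2 0.02 ± 0.10 and Dad1 -0.12 ± 0.14, with adjusted p from 0.166 to 0.916 and no call. Rpn2 stayed within 134 to 146 FPKM in the 4 libraries.

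**Figure D4:**
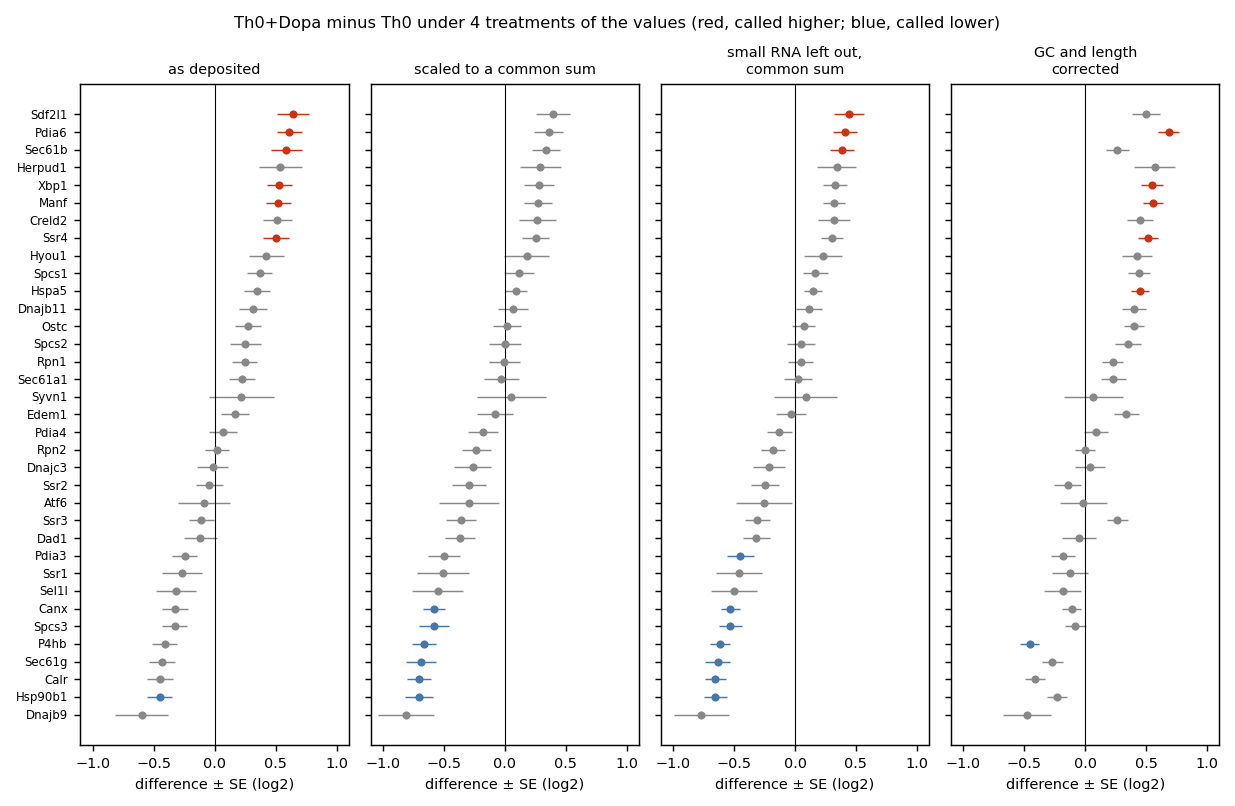
Th0+Dopa minus Th0 (log2 scale, mean ± SE) for the 35 tested ER genes as deposited, with libraries scaled to a common FPKM sum, with small RNA genes left out first, and with each pair corrected for GC content and length. Calls number 6 higher and 1 lower, 0 and 6, 3 and 7, and 5 and 1 in that order, beside 6.28% and 4.39%, 3.29% and 9.31%, 4.41% and 12.6%, and 4.25% and 2.99% of all genes tested in each.

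The differences of the ER genes went with base composition. Over the 35 tested genes the difference correlated with the GC content of the transcripts at Pearson's r = 0.483 (Spearman's rho = 0.461) and with their log2 length at r = -0.321 (rho = -0.400), given as a description over genes that share the same libraries. The same correlation over all tested genes is not given, so it is not shown to be particular to ER genes. Sdf2l1 and Sec61b, among the highest, had 56.7% and 56.1% GC, and Hsp90b1 and Canx, with differences below 0, 42.7% and 42.9%. Pdia6, at 48.6%, and P4hb, at 54.2%, did not follow that order, nor did Manf, at 48.7%, and Calr, at 50.8%. With each pair's differences corrected for GC content and length, 5 genes were called higher (Pdia6, Manf, Xbp1, Ssr4 and Hspa5) and 1 lower (P4hb), which is 14.3% and 2.86% beside 4.25% and 2.99% of all 11284 genes in that fit. Of the 6 that rose as deposited, 4 were among these, and Sdf2l1 (0.50 ± 0.12, adjusted p = 0.0781) and Sec61b were not.

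Genes with the ERSE did not go one way. Of the 8, Pdia6 rose and Hsp90b1 fell. Hspa5 and Creld2, like Pdia6, lay above Th0 in both dopamine libraries, while Calr and Canx, like Hsp90b1, lay below Th0 in both, and Dnajc3 and Syvn1 overlapped. The median difference was 0.10 for these 8 and 0.12 for the 20 tested genes whose promoter held no exact match to the ERSE. These 20 include Herpud1 and Dnajb11, which hold the ERSE-II, and inexact copies were not searched for. As the sequences above show, the copies in Pdia6 and Canx read in the same direction along the gene, and so do those of Creld2 and Calr on the other strand, while the values lay on opposite sides of 0.

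**Figure D5:**
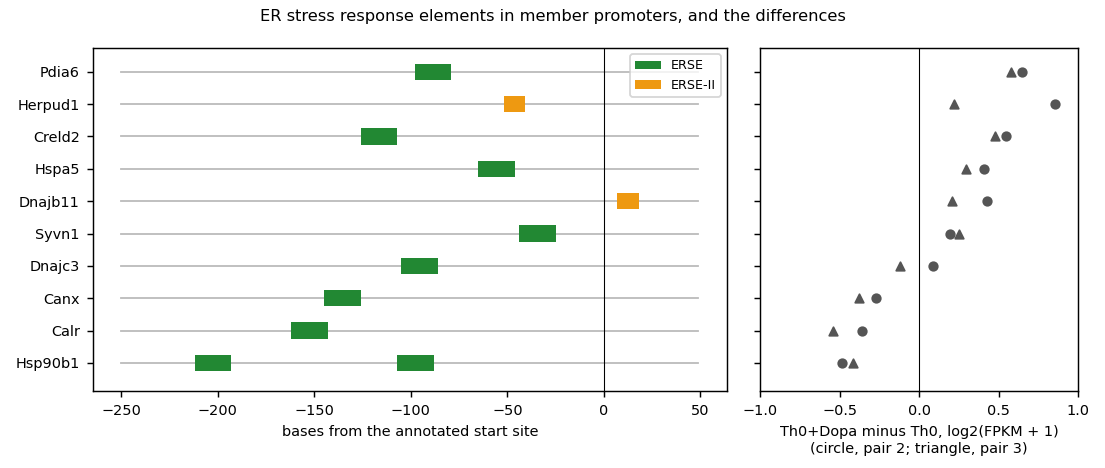
Left, position of ERSE (green) and ERSE-II (orange) matches relative to the annotated start site in the 10 genes that held one. Right, Th0+Dopa minus Th0 of log2(FPKM + 1) in pair 2 (circles) and pair 3 (triangles), in which Pdia6 lies at 0.65 and 0.58 and Hsp90b1 at -0.49 and -0.41.

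Other genes of the pathway, 145 in 8 lists of which 134 were tested, held 8 calls higher (5.97%) and 0 lower by limma, beside 6.28% and 4.39% of all tested genes, and 21 higher and 7 lower at an unadjusted p under 0.05. Those are 15.7% and 5.22% of the 134, beside 15.7% and 12.2% of all tested genes, so the share higher was that of all genes. Their median was 0.10. In the list of the PERK branch 2 of 8 rose (25%, beside 6.28% of all tested genes). Atf4, its transcription factor, was at 160.5 and 151 FPKM in Th0 2 and 3 and at 254 and 250.3 with dopamine (0.69 ± 0.10, adjusted p = 0.0148, or 0.0522 with the common sum). Trib3, a pseudokinase induced by Atf4, was at 4.24 and 3.13 FPKM in Th0 and at 13.1 and 12.6 with dopamine (1.57 ± 0.19, adjusted p = 0.00866). The other PERK branch genes were not called. The kinase Eif2ak3 itself was at 7.39 and 6.49 FPKM in Th0 and at 5.59 and 5.63 with dopamine (-0.26 ± 0.19, adjusted p = 0.423). Whether PERK had a part in the rise of Atf4 and Trib3 was not tested. Ddit3, which encodes the death-promoting factor CHOP, had 0.18 ± 0.14 (adjusted p = 0.481), and Ppp1r15a, which restores translation, -0.40 ± 0.19 (adjusted p = 0.225). Atf6b, the paralog of Atf6, had 0.31 ± 0.18 (adjusted p = 0.323). The other sensors and proteases held 0 calls of 4 tested.

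Among glycosylation genes outside the 36, 3 of 26 rose (11.5%, beside 6.28% of all tested genes). Krtcap2, an oligosaccharyltransferase subunit, went from 110.1 and 92.0 FPKM in Th0 2 and 3 to 281 and 188 in Th0+Dopa 2 and 3 (1.18 ± 0.12, adjusted p = 0.00536). Dpm3, a subunit of dolichol phosphate mannose synthase, went from 17.4 and 17.4 to 78.8 and 41.9 (1.67 ± 0.22, adjusted p = 0.0116). With GC content and length corrected for, both were still called, at 1.09 ± 0.09 and 1.35 ± 0.20. Alg1, an early mannosyltransferase of the lipid-linked glycan and the other gene that rose, had 0.72 ± 0.16 (adjusted p = 0.0486). Derl1, a channel protein of degradation, rose by 0.58 ± 0.13 (adjusted p = 0.0446, 1 of 21 in its list). Get4, which hands over tail-anchored proteins, rose by 0.77 ± 0.11 (adjusted p = 0.0145, 1 of 17). Lman2, a cargo lectin of ER export, rose by 0.54 ± 0.12 (adjusted p = 0.0481, 1 of 20). The shares of these 3 lists, 4.76%, 5.88% and 5%, were below the 6.28% of all tested genes. With the common sum Alg1, Derl1 and Lman2 no longer passed (adjusted p = 0.162, 0.211 and 0.218), and with the GC and length correction Alg1 (0.62 ± 0.15, adjusted p = 0.0848) and Lman2 (0.56 ± 0.12, adjusted p = 0.0639) did not. The other disulfide enzymes and the other chaperones and glycan trimming genes held 0 calls of 16 and of 22 by limma, with medians of -0.04 and -0.0013. At an unadjusted p under 0.05 the former held 2 higher (12.5%) and 1 lower (6.25%), and the latter 3 higher (13.6%) and 2 lower (9.09%). Over all tested genes these shares were 15.7% and 12.2%.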

How the data were processed

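The authors deposited FPKM in 2 tables of 38282 genes, the first with libraries 2 and the second with libraries 3. Named in the submitters' processing notes are STAR 2.4.2 and Cufflinks 2.2.1, the build mm10, and for the reads Trimmomatic 0.35, bcl2fastq 1.8.4 and FastQC 0.10.1. Per the labels' protocols a stranded, ribosomal RNA-depleted total RNA kit was used. For annotation release, normalization options and strand, nothing is given in the sources used here. Gene names and coordinates came from GENCODE M21 (36423 IDs matched). From the deposited FPKM, limma 3.58.1 (eBayes with trend, R 4.3.3, two-sided) was fitted on log2(FPKM + 1) with the table as a block. That leaves 1 residual degree of freedom per gene, beside 4.70 prior degrees of freedom that limma took from all tested genes. The fit was tested on simulated data with 2-fold and 4-fold changes put in and a spread drawn from the fit itself. Most of the 2-fold changes were missed, and in some runs unchanged genes made up a larger share of the calls than the threshold sets. Changes as small as those of the ER genes were not put in, so how well these are called was not tested. Total counts were not used here. In genes with a single transcript, 78.9% to 84.7% of low values were whole fragments within a tolerance of 0.15 (30% by chance), and 1 fragment on a 1 kb transcript was worth about 0.158 to 0.210 FPKM. The correction for GC content and length was a loess of span 0.3 on each pair's differences. Alternatives were other pseudocounts (0.1 and 0.5), filters, scalings, protein-coding genes only, no trend, no block and each library left out. The members, lists and alternatives were chosen with earlier results of these data known. All 36 genes are named, and of the other pathway lists up to 2 calls in each direction per list and Eif2ak3, Atf4, Ddit3, Ppp1r15a and Atf6b.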

Additional observations from a re-analysis of the deposited data

How the results depend on the processing

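As deposited, 6 ER genes were called higher and 1 lower, with a median of 0.17. Calls numbered 7 higher and 3 lower with a pseudocount of 0.1 (7.93% and 5.52% of all genes), 7 and 2 with 0.5 (7.2% and 5.06%) and 7 and 2 with a filter at 5 FPKM (9.51% and 5.48%). Without a filter there were 2 and 0 (1.98% and 1.33%), with the common sum 0 and 6 (3.29% and 9.31%, median -0.081) and with small RNA left out first 3 and 7 (4.41% and 12.6%, median -0.031). Over protein-coding genes only there were 11 and 4 (10.6% and 8.93%), and without the trend 0 and 0 (0.928% and 1.31%). Without the replicate block, 0 and 0 were called (2.24% and 2.1%). Deviations of same-numbered libraries from their group means correlated at r = 0.0869 over genes. With 2 libraries per group this is a single value, which cannot show whether same-numbered libraries share a source. In fits without 1 library (no block, median of ratios, the lone library assumed to vary like the other group), 0 were called in either direction in each, when at most 4 of all 11423 genes were called in any of them, so this count says nothing about the ER genes. The median ran from 0.061 to 0.19. In these fits the 7 called genes kept their sign, Pdia6 at 0.50 to 0.73 and Hsp90b1 at -0.59 to -0.32. Signs turned only for genes without a call. With the common sum these were Pdia4 (-0.18), Edem1 (-0.081), Sec61a1 (-0.027), Rpn1 (-0.0052) and Rpn2 (-0.23), and with small RNA left out Pdia4 (-0.13), Edem1 (-0.031) and Rpn2 (-0.18). With the replicate block and the GC and length correction they were Dnajc3 (0.037), Ssr3 (0.26) and Rpn2 (-0.0012). In the fits without 1 library, they ranged from -0.060 to 0.20 for Pdia4, -0.091 to 0.058 for Dnajc3, -0.16 to 0.60 for Syvn1, -0.26 to 0.093 for Atf6, -0.58 to 0.046 for Ssr1, -0.39 to 0.15 for Dad1 and -0.056 to 0.098 for Rpn2. The cause of these changes was not tested. Depth limits Ern1, Syvn1 and Dnajb9 most, which rest on about 7 to 64 fragments a library.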
